A study of Bos taurus with 8 samples.

Results

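SOCS1, SOCS2, SOCS3 and CISH are inhibitors of cytokine signalling that belong to 1 gene family, and they were taken by gene name as 4 of the 21861 genes listed for every cell. Their Ensembl identifiers are ENSBTAG00000004386, ENSBTAG00000012007, ENSBTAG00000008441 and ENSBTAG00000022622 in that order. The cells came from whole blood of 4 Holstein females, 2 years old and lactating, mixed into 1 pool and divided into 4 parts. A control part received no LPS (lipopolysaccharide of the bacterial outer membrane), and the other 3 were kept with 2 µg/ml LPS at 37 °C for 2 h, 4 h or 8 h before peripheral blood mononuclear cells (PBMCs) were isolated. Each part gave 1 library of single-cell RNA sequencing (scRNA-seq) and 1 of single-cell chromatin accessibility (scATAC-seq). With 1 library per treatment there was no replicate error and no test, the pooled animals cannot be separated, and the incubation time of the control is not given, so LPS and time in culture cannot be told apart.

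Many cytokines act through receptors that carry JAK kinases, which phosphorylate STAT transcription factors. Genes of this family are switched on by STATs and feed back on the same receptors. Each protein binds phosphorylated receptors or kinases through an SH2 domain and recruits a ubiquitin ligase through its SOCS box. SOCS1 and SOCS3 also inhibit JAK kinases directly. SOCS1 is best known for restraining interferon signalling, SOCS3 for restraining IL6 and G-CSF receptors, SOCS2 for restraining the growth hormone receptor, and CISH as a STAT5 target that restrains IL2-type cytokines in lymphocytes.

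The cells kept numbered between 3411 (8 h) and 9865 (2 h) per library, with median depths of 3997 to 4757 UMIs (unique molecular identifiers, counted RNA molecules). Cells were gated on raw UMIs of CD14 (monocytes), CD3E (T cells), MS4A1 (B cells) and NCR1 (NK cells), each without a UMI of the other 3, and CD14 needed 2 UMIs. The CD14 gate held 707, 308, 117 and 66 cells (no LPS, 2 h, 4 h and 8 h, an order kept throughout). The CD3E gate held 3482, 4937, 3857 and 1550, the MS4A1 gate 1692, 2392, 1894 and 663, and the NCR1 gate 58, 97, 90 and 38. Cells with none of the 4 markers numbered 1094, 1441, 981 and 556. Each gate held the highest summed level of its own marker list, and all 11 monocyte genes other than CD14 were detected in the CD14 gate of every library. Monocyte genes in the CD3E gate summed to between 1.40% and 1.99% of their level in the CD14 gate, a measure of free RNA. In the MS4A1 gate this was between 0.833% and 2.71%. Pairs of scRNA-seq libraries shared between 6 and 21 barcodes.

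Over all cells CISH was higher in all 3 LPS libraries, SOCS3 was highest at 2 h, and SOCS1 and SOCS2 were highest at 8 h. Levels are UMIs of the gene per 1000000 UMIs summed over the cells (CPM), with 95% intervals in parentheses that cover counting error only. CISH stood at 23.6 CPM (22.0 to 25.1), 36.3 (34.6 to 38.1), 46.6 (44.5 to 48.8) and 41.7 (38.7 to 44.9). It was higher in every LPS library than without LPS, by 1.54-fold, 1.98-fold (1.83 to 2.15) and 1.77-fold, and the intervals of the control and the LPS libraries did not overlap. SOCS3 stood at 7.77 CPM (6.91 to 8.70), 12.5 (11.5 to 13.6), 8.69 (7.80 to 9.65) and 6.54 (5.37 to 7.89). Its 2 h library was the high one, 1.61-fold above the control (1.40 to 1.86), and the 4 h and 8 h intervals overlapped that of the control. Cells of the CD14 gate were scarcer with LPS, at 9.04%, 3.12%, 1.58% and 1.93% of cells, and the monocyte list stood at 3553, 1023, 582 and 1223 CPM over all cells. With 1 CD14 UMI enough, the gate held 796, 382, 151 and 170 cells, against 707, 308, 117 and 66, so its 8 h share depends on this rule. Within the gate the list stood at 14702, 8483, 9860 and 15132 CPM, so its all-cell level does not follow cell number alone. With every population held at its no LPS share, SOCS3 stood at 15.5, 13.2 and 8.59 CPM at the 3 LPS times and CISH at 43.0, 59.4 and 45.0 CPM. The 8 h level of SOCS3 then lay above the control instead of below it. These values rest on the gates as set, and no interval was computed for them.

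SOCS2 stood at 6.0 CPM (5.25 to 6.83), 5.18 (4.56 to 5.87), 5.85 (5.13 to 6.65) and 9.85 (8.40 to 11.5). Its 8 h library was the high one, 1.64-fold above the control (1.34 to 2.01), on 164 UMIs from 81 cells. SOCS1 was rare, with 49, 74, 66 and 44 UMIs in the 4 libraries. These are 1.27 CPM (0.941 to 1.68), 1.55 (1.21 to 1.94), 1.64 (1.27 to 2.09) and 2.64 (1.92 to 3.55), and only the 8 h interval lay clear of the control, at 2.08-fold (1.35 to 3.18). A gene was called past 2-fold when log2((CPM + 1)/(CPM + 1)) reached 1 or -1 among genes with at least 20 UMIs in the 2 sums compared. On this scale SOCS1 at 8 h reached 0.68 and CISH at 4 h reached 0.96. Of all genes, 0.938%, 1.28% and 0.492% were called higher at the 3 LPS times and 2.46%, 4.26% and 2.92% lower, against 0 of 4 members each time. With populations held at their no LPS shares, CISH at 4 h and SOCS2 at 8 h passed the limit, at log2 values of 1.30 and 1.02.

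**Figure D1:**
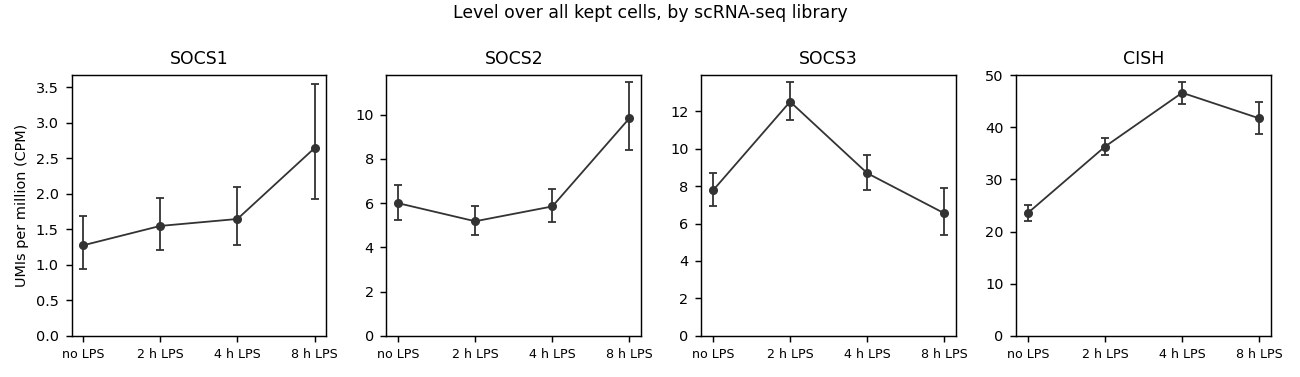
Level of each gene over all kept cells in the 4 scRNA-seq libraries, in CPM, with 95% counting intervals as bars. CISH was above its control level of 23.6 CPM in all 3 LPS libraries, SOCS3 was highest at 2 h with 12.5 CPM, and SOCS1 and SOCS2 were highest at 8 h.

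Among gated values with enough UMIs for a call, CISH and SOCS2 in the CD14 gate lay furthest from the control. CISH there stood at 20.5 CPM (17.2 to 24.2), 86.3 (76.9 to 96.5), 112 (93.3 to 133) and 50.3 (34.4 to 71.0). All 3 LPS libraries lay above the control with no overlap of intervals, by 4.21-fold (3.43 to 5.19), 5.46-fold (4.26 to 7.0) and 2.45-fold (1.62 to 3.63). A single cell held 15 of the 127 CISH UMIs at 4 h, and 1 cell held 9 of the 32 at 8 h. The share of CD14 cells with a CISH UMI was 13.7%, 44.2%, 46.2% and 27.3%, and after each cell was thinned to 1000 UMIs it was 2.08%, 6.33%, 14.2% and 5.26%. In the MS4A1 gate between 4.96% and 7.69% of cells held a CISH UMI.

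SOCS3, which damps IL6 and G-CSF receptors, stood at 16.8 CPM (13.8 to 20.2), 35.9 (29.9 to 42.6), 34.4 (24.4 to 47.0) and 18.9 (9.74 to 32.9) in the CD14 gate. It was 2.14-fold above the control at 2 h (1.65 to 2.78) and 2.05-fold at 4 h (1.38 to 2.97), and the 8 h interval covered the control. SOCS2 had 10, 19, 9 and 16 UMIs there, or 1.49, 5.32, 7.93 and 25.1 CPM. The 8 h level was 16.9-fold above the control (7.22 to 41.7), from 7 of 66 cells, 1 of which held 6 of the 16 UMIs. The 8 h gate also held 1 cell with a UMI of GATA2, a gene of SOCS2-rich marker-free cells described below. The gate held 0 such cells in each of the other libraries, and the part of this cell in the SOCS2 level was not tested. At 2 h SOCS2 was 3.58-fold above the control (1.59 to 8.63), and at 4 h its 19 UMIs over both libraries were below the 20 needed for a call. SOCS1 had 10, 10, 2 and 2 UMIs in the CD14 gate, too few to compare at 4 h and 8 h.

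Of the 4 members, 3 were called higher in this gate at 2 h (CISH, SOCS3 and SOCS2), 1 of the 2 with enough UMIs at 4 h (CISH, with SOCS3 at a log2 value of 0.99) and 2 of 3 at 8 h (CISH and SOCS2). None was called lower. The share of all genes called higher was 4.2%, 5.59% and 5.4%, and the share called lower was 21.3%, 13% and 8.44%. The median gene of this gate had log2 values of -0.56, -0.20 and -0.05 at the 3 times, so the members' values lay further above the median gene than above 0.

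The make-up of the CD14 gate also differed between libraries, a split examined after the values were seen. Cells with a UMI of CSF3R, the G-CSF receptor of neutrophils, were 5.37% of the gate without LPS and 14.9%, 29.1% and 10.6% with LPS. Of the 7 neutrophil list genes, 6 were detected in the gate without LPS and 5 at each LPS time, with a summed level of 7272 to 11705 CPM that came mostly from S100A8 and S100A9, which monocytes also express. CXCR1, a neutrophil chemokine receptor, stood at 3.86, 16, 73.1 and 6.29 CPM, and CXCR2, another, at 0.297, 8.13, 10.6 and 6.29 CPM. MMP8 was at 0 in all 4 libraries, but also in the marker-free cells with CSF3R described below, so it does not set the gate apart from them. Without the cells carrying CSF3R, CISH stood at 19.2, 75.3, 74.2 and 51.5 CPM, which left it 3.92-fold, 3.87-fold and 2.68-fold above the control. SOCS3 without them stood at 17.2, 27.4, 24.0 and 18.9 CPM, only 1.60-fold above the control at 2 h (1.19 to 2.13). The SOCS3 call at 2 h was lost, at a log2 value of 0.64, and so was the SOCS2 call at 2 h, at 0.89 on 12 UMIs. SOCS2 at 8 h kept 14 of its 16 UMIs and stood at 24.0 CPM.

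In the CD14 cells with CSF3R themselves (38, 46, 34 and 7 cells), SOCS3 had 3, 40, 17 and 1 UMIs, or 9.18, 112, 77.6 and 18.6 CPM. CISH had 15, 66, 59 and 2 UMIs there, or 45.9, 185, 269 and 37.2 CPM. Both genes were higher in these cells at 2 h and 4 h than in the rest of the gate, and 7 cells at 8 h are too few to read. The upper limit of 3000 genes per cell also removed CD14 cells, which numbered 793, 342, 132 and 89 without it. Without the limit SOCS2 stood at 2.28, 5.86, 7.28 and 15.7 CPM, a smaller log2 difference at 8 h of 2.35 in place of 3.40. CISH without the limit stood at 19.8, 71.6, 97.1 and 44.8 CPM.

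**Figure D2:**
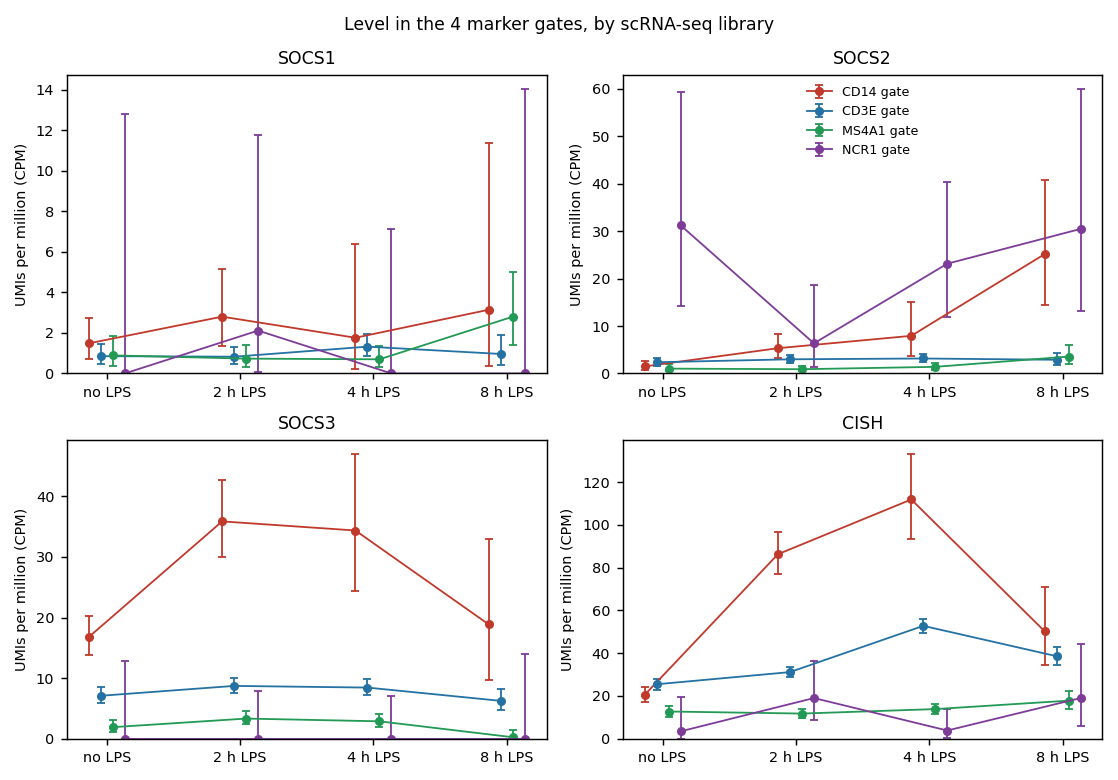
Level of each gene in the CD14, CD3E, MS4A1 and NCR1 gates of the 4 scRNA-seq libraries, in CPM, with 95% counting intervals as bars and a separate vertical scale per gene. CISH and SOCS3 were highest in the CD14 gate at 2 h and 4 h, and SOCS3 was at 0 in the NCR1 gate of every library, where the intervals are wide.

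Among CD3E cells CISH was again the gene that differed most, with its highest level at 4 h. It stood at 25.5 CPM (23.0 to 28.1), 31.2 (28.9 to 33.6), 52.8 (49.6 to 56.1) and 38.6 (34.5 to 43.1). The 4 h library was highest, 2.07-fold above the control (1.84 to 2.33), and at 2 h the difference was 1.22-fold (1.08 to 1.39). The share of CD3E cells with a CISH UMI was 8.36%, 10.6%, 19.3% and 15.7%, or 2.45%, 2.95%, 4.92% and 3.34% of cells thinned to 1000 UMIs.

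SOCS3 in the CD3E gate stood at 7.09 CPM (5.82 to 8.56), 8.72 (7.52 to 10.1), 8.44 (7.21 to 9.83) and 6.25 (4.67 to 8.20), with all 4 intervals overlapping. SOCS2 stood at 2.36, 2.98, 3.15 and 2.89 CPM on 24 to 65 UMIs, and SOCS1 between 0.826 and 1.32 CPM on 8 to 26 UMIs. Neither differed from the control beyond counting error. The only member called higher was CISH at 4 h, 1 of 4, where 1.08% of all genes were called higher and 0.713% lower. At 2 h and 8 h it was 0 of 4, against 0.616% and 0.707% of all genes called higher and 0.289% and 0.484% lower. Levels of SOCS3 and CISH in this gate were far above the 1.40% to 1.99% of the CD14 gate's level that free monocyte RNA reached.

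In MS4A1 cells the family was low. CISH stood at 12.7 CPM (10.4 to 15.5), 11.8 (9.94 to 13.9), 13.9 (11.8 to 16.2) and 17.8 (13.9 to 22.5), and the 8 h library was 1.40-fold above the control (1.02 to 1.92), while the ratios at 2 h and 4 h were 0.924 (0.712 to 1.2) and 1.09 (0.842 to 1.41). SOCS3 had 15, 41, 33 and 1 UMIs, or 1.91 CPM (1.07 to 3.15), 3.33 (2.39 to 4.52), 2.88 (1.98 to 4.04) and 0.255 (0.00644 to 1.42). The single UMI at 8 h gives a ratio to the control of 0.133 (0.00316 to 0.865), and beside the CD14 gate of that library it lies below the 1.5% that free monocyte RNA reached there. SOCS2 had 8, 11, 16 and 14 UMIs, and at 8 h its 3.56 CPM was 3.50-fold above the control (1.37 to 9.62).

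SOCS2 at 8 h was the only member called in the MS4A1 gate, 1 of the 2 with enough UMIs, where 1.7% of all genes were called higher and 1.92% lower. With 2 MS4A1 UMIs required per cell its log2 value was 0.25 in place of 1.18, and the call was lost. At 2 h and 4 h none of the 2 and 3 members with enough UMIs was called, against 2.54% and 2.56% of all genes called higher and 1.75% and 4.72% lower. SOCS1 stood at 0.892, 0.731, 0.698 and 2.80 CPM, and 5 of its 11 UMIs at 8 h came from 1 cell.

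The NCR1 gate was small, and its profile was SOCS2 without SOCS3. SOCS2 had 9, 3, 12 and 8 UMIs, or 31.2 CPM (14.3 to 59.3), 6.35 (1.31 to 18.5), 23.1 (12 to 40.4) and 30.5 (13.1 to 60.0). The 2 h library was the low one, with a ratio to the control of 0.203 (0.0354 to 0.815) that rests on 3 UMIs. SOCS3 had 0 UMIs in every library, 0 of 1542584 UMIs from 283 cells, which allows a level of up to 1.94 CPM. CISH had 1, 9, 2 and 5 UMIs and SOCS1 0, 1, 0 and 0. CISH, which restrains cytokine responses of NK cells, thus reached 3.47, 19.0, 3.85 and 19.0 CPM, with intervals that all overlapped.

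Summed over the 4 libraries, SOCS3 and CISH had the same order of gates, from CD14 to CD3E, MS4A1 and NCR1, and SOCS2 had another. For SOCS3 the order was CD14 at 24.2 CPM (21.5 to 27.1), CD3E at 7.94 (7.27 to 8.66), MS4A1 at 2.53 (2.04 to 3.11) and NCR1 at 0, and the intervals of the first 3 did not overlap. For CISH it was CD14 at 50.1 (46.2 to 54.3), CD3E at 37.3 (35.9 to 38.8), MS4A1 at 13.3 (12.2 to 14.6) and NCR1 at 11.0 (6.42 to 17.6), and the last pair did not differ beyond counting error. For SOCS2 it was NCR1 at 20.7 (14.2 to 29.3), CD14 at 4.47 (3.36 to 5.84), CD3E at 2.88 (2.48 to 3.32) and MS4A1 at 1.38 (1.02 to 1.82). Each interval was clear of the next, but for CD14 and CD3E only by 3.36 against 3.32 CPM. The intervals take UMIs as independent, while the 54 SOCS2 UMIs of the CD14 gate came from 37 cells and the 49 of MS4A1 from 22. The order of these sums did not hold in every library. Without LPS the CD14 gate lay below CD3E for CISH, at 20.5 against 25.5 CPM, and for SOCS2, at 1.49 against 2.36 CPM, with overlapping intervals. SOCS2 in the NCR1 and CD14 gates also overlapped at 2 h, at 6.35 and 5.32 CPM, at 4 h, at 23.1 and 7.93 CPM, and at 8 h, at 30.5 and 25.1 CPM. SOCS1 stood at 1.99 CPM in the CD14 gate (1.27 to 2.96), 1.00 in CD3E (0.772 to 1.27) and 0.985 in MS4A1 (0.686 to 1.37). Its NCR1 value of 0.648 (0.0164 to 3.61) comes from 1 UMI. The SOCS1 intervals of all 4 gates overlapped, so its gates had no order beyond counting error.

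Summed over the libraries, the cells with none of the 4 markers held more of the family's RNA than their number would give. They were 14.3% of all cells and held 55.9% of the SOCS2 UMIs, 35.2% of the SOCS1 UMIs, 19.0% of the SOCS3 UMIs and 18.6% of the CISH UMIs. For SOCS3 this did not hold without LPS, where they were 14.0% of cells and held 6.02% of its UMIs. SOCS2 there stood at 45.9 CPM (39.0 to 53.6), 28.5 (23.8 to 33.8), 30.2 (25.1 to 36.2) and 60.3 (47.9 to 74.9), above its level in the CD14, CD3E and MS4A1 gates in every library. SOCS3 in the same cells stood at 5.20 CPM (3.08 to 8.21), 34.4 (29.2 to 40.2), 15.4 (11.8 to 19.7) and 15.6 (9.67 to 23.9), 6.62-fold above the control at 2 h (4.06 to 11.5). CISH stood at 45.6, 74.0, 75.1 and 128 CPM, and the 8 h level was 2.81-fold above the control (2.25 to 3.50). SOCS1 stood at 4.04 CPM (2.21 to 6.78), 6.10 (4.05 to 8.81), 6.05 (3.88 to 9.0) and 11.9 (6.80 to 19.3). The marker-free cells at 8 h were shallower, with medians of 1292 UMIs and 615 genes, against 2310 to 3351 UMIs and 953 to 1238 genes in the other libraries. Their median ribosomal protein share was 25.2%, against 32.2% to 33.7%, and the part of this difference in the 8 h levels was not tested.

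**Figure D3:**
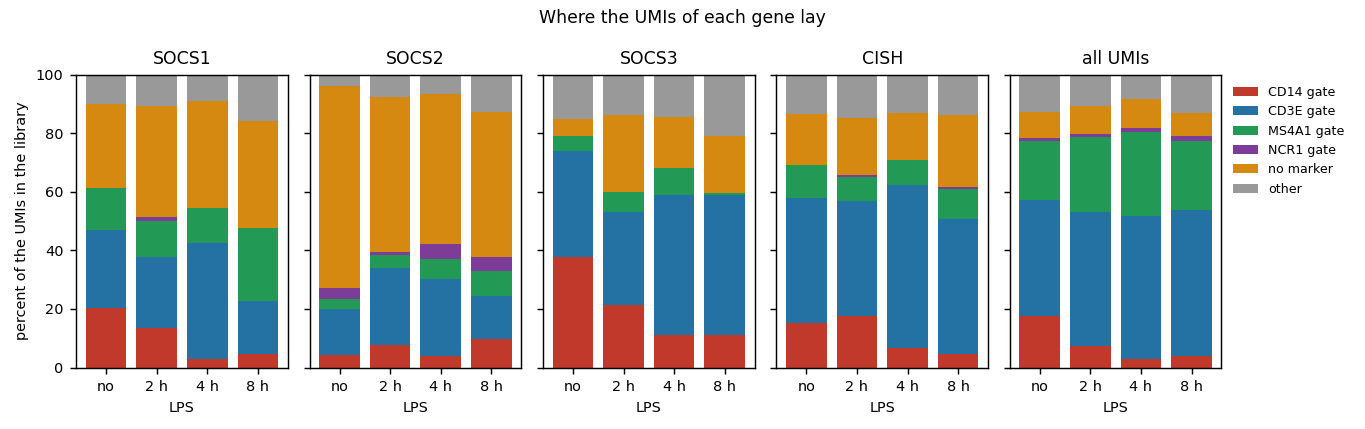
Share of each gene's UMIs found in the 4 gates, in cells with no gate marker and in all other cells, for the 4 scRNA-seq libraries, beside the same shares of all UMIs. Marker-free cells held 68.8%, 52.8%, 51.1% and 49.4% of the SOCS2 UMIs, and the CD14 gate held 37.8% of the SOCS3 UMIs without LPS and 11.0% at 8 h.

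Within the marker-free cells 2 small sets had far higher levels than the rest, and both were singled out after their values were seen. Cells outside both sets still held most of the marker-free UMIs in every library, between 61.0% and 71.7% for SOCS2, 54.1% and 94.4% for SOCS3, 60.1% and 75.6% for CISH, and at least 92.9% for SOCS1. Marker-free cells with a UMI of GATA2, a transcription factor of several blood lineages, numbered 47, 37, 31 and 18. Their leading genes over other marker-free cells were PTI (a trypsin inhibitor), CSF2, TPM1, RNASE4, RGS18, CD9 and FCER1A (a chain of the high-affinity IgE receptor). They had median depths of 1475 to 2045 UMIs and ribosomal protein shares of 2.99% to 5.76%, against 25.2% to 33.7% in marker-free cells as a whole. SOCS2 in them stood at 754 CPM (578 to 967), 582 (418 to 790), 434 (301 to 607) and 590 (378 to 878), and 31, 21, 19 and 9 of these cells held a SOCS2 UMI. They were between 0.375% and 0.601% of the cells and held 26.8%, 16.5%, 14.5% and 14.6% of the SOCS2 UMIs of each library.

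CISH was also high in the GATA2 cells, at 353 CPM (236 to 506), 312 (196 to 473), 115 (52.6 to 218) and 590 (378 to 878). The 4 h library had the lowest value for both genes, with ratios to the control of 0.576 for SOCS2 (0.367 to 0.889) and 0.326 for CISH (0.136 to 0.707). With 2 GATA2 UMIs required per cell SOCS2 stood at 754, 455, 567 and 557 CPM, so its lowest library was then 2 h, while CISH stood at 332, 309, 73.2 and 688 CPM and was still lowest at 4 h. SOCS3 had 1, 3, 1 and 0 UMIs in these cells and SOCS1 1, 1, 0 and 0. Marker-free cells with neither GATA2 nor CSF3R still held SOCS2 at 29.2, 20.2, 23.0 and 45.4 CPM, from 35 of 996, 38 of 1299, 31 of 862 and 19 of 506 cells.

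Marker-free cells with a UMI of CSF3R numbered 51, 105, 88 and 32. Beside CSF3R their leading genes were S100A9, S100A8, S100A12, DEFB10, SERPINB4 and TGM3, and their median mitochondrial share was 0.334% to 0.593%. SOCS3 had 0, 52, 27 and 6 UMIs in them, which is 0, 297 (222 to 389), 175 (115 to 255) and 86.6 CPM (31.8 to 189). The 0 without LPS allows up to 45.7 CPM, and the SOCS3 levels were 6.49-fold above this limit at 2 h and 3.83-fold at 4 h. The lower counting limits of the ratios themselves were 5.09 at 2 h, 2.9 at 4 h and 1.11 at 8 h, where the interval of the level covered 45.7 CPM. CISH stood at 274 CPM (163 to 434), 348 (266 to 447), 713 (586 to 859) and 433 (292 to 618), and at 4 h it was 2.60-fold above the control (1.57 to 4.55) and was found in 62.5% of these cells. SOCS2 had 0, 2, 0 and 1 UMIs in the CSF3R cells.

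The 6 neutrophil list genes beside CSF3R summed to 45726 CPM in the CSF3R cells without LPS and to 9724, 4764 and 20613 CPM with LPS, 4 or 5 of the 6 detected each time. The part of this difference in the SOCS3 and CISH values was not tested. The cells with CSF3R and no gate marker held 8.68%, 7.74% and 5.50% of the SOCS3 UMIs at 2 h, 4 h and 8 h.

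**Figure D4:**
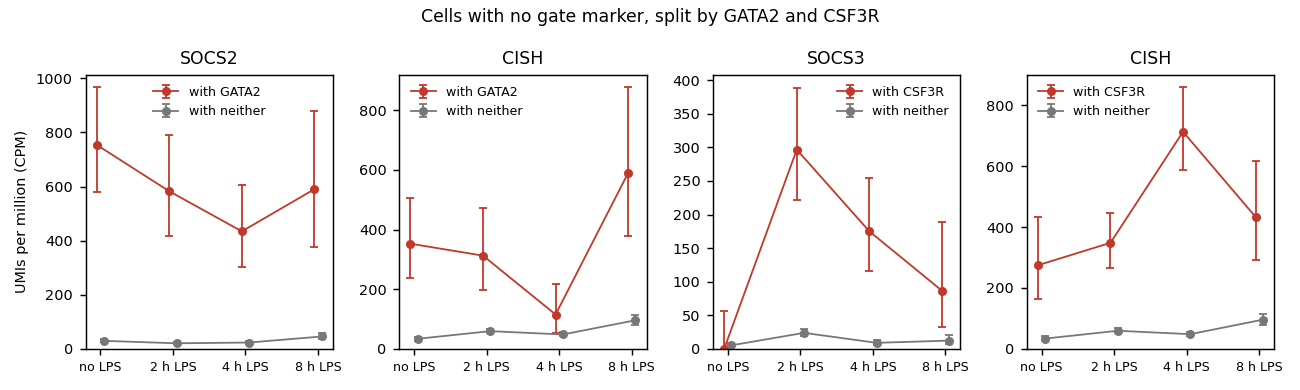
Level of SOCS2 and CISH in marker-free cells with GATA2, and of SOCS3 and CISH in those with CSF3R, beside marker-free cells with neither gene, in CPM with 95% counting intervals. SOCS2 was above 400 CPM in GATA2 cells of every library, and SOCS3 in CSF3R cells went from 0 without LPS to 297 CPM at 2 h.

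Members were also counted within single cells. A cell with SOCS2 held 1.90 SOCS2 UMIs on average and a cell with CISH 1.5 CISH UMIs, against 1.17 for SOCS1 and 1.17 for SOCS3. The pair met most often was SOCS3 and CISH, the members found in the most cells, in 46, 151, 107 and 30 cells. This was 17.0%, 30.4%, 35.9% and 30.6% of the cells with SOCS3 and 6.84%, 13.4%, 8.82% and 6.56% of those with CISH. Unrelated detection would give 23.2, 56.8, 48.9 and 13.1 cells for this pair. SOCS2 and CISH met in 35, 51, 44 and 28 cells, between 29.4% and 38.6% of the cells with SOCS2 and between 3.63% and 6.13% of those with CISH. Here unrelated detection would give 10.2, 15.1, 21.5 and 10.9 cells. Of all cells, 8.61%, 11.5%, 16.4% and 13.4% held a CISH UMI, a lower share in each library than among cells with SOCS2 or SOCS3. The part of cell depth and of cell class in these differences was not tested. SOCS1 and SOCS2 met in 1, 1, 0 and 0 cells, where unrelated detection would give 0.639, 0.883, 1.03 and 0.784 cells.

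Of 88 genes listed as partners, targets and relatives of the family, 84 were found by name. Over all cells 9 of the 79 with enough UMIs were called higher and 1 lower at 2 h, 7 and 3 of 78 at 4 h, and 4 and 2 of 79 at 8 h. Their median log2 value was 0.13, 0.19 and 0.20, against -0.03, 0.02 and 0.10 for all genes tested. Within the CD14 gate 14 of 67 were called higher and 10 lower at 2 h, 15 and 5 of 64 at 4 h, and 11 and 1 of 62 at 8 h. Their medians there were -0.13, 0.38 and 0.34, against -0.56, -0.20 and -0.05 for all genes tested. Of all genes in that gate, 4.2%, 5.59% and 5.4% were called higher and 21.3%, 13% and 8.44% lower.

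Among 16 cytokine ligands, 5 of 14 were called higher and 1 lower over all cells at 2 h, 1 and 2 of 12 at 4 h, and 3 and 2 of 13 at 8 h. Over all genes 0.938%, 1.28% and 0.492% were called higher and 2.46%, 4.26% and 2.92% lower. IL22, a type 17 cytokine, differed by a log2 value of 3.19, CSF3 (G-CSF) by 2.63 and IFNG by 2.35. IL6 was higher by 1.02 at 2 h. At 4 h IL6 was lower than the control by a log2 value of -1.81, and so was OSM, a relative of IL6, at -1.67. IL6 remained at -1.85 at 8 h, while IL22 stood at 2.16. Cells of the CD14 gate were 9.04% of cells without LPS, 1.58% at 4 h and 1.93% at 8 h. The part of this difference in the all-cell values of IL6 and OSM was not tested. Among CD14 cells CSF2 (GM-CSF) was higher by 4.11, 2.61 and 3.68 at the 3 times and CSF3 by 3.70, 2.69 and 2.08, and IL6 was higher by 1.958 at 2 h. CSF3 is the ligand of the receptor that SOCS3 restrains.

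Of 22 cytokine receptors, 1 was called higher over all cells at 2 h and 4 h, IL2RA, the high-affinity IL2 receptor chain, by log2 values of 1.19 and 1.46. CSF2RA was called lower at 4 h, by -1.09, and no receptor was called at 8 h. The part of the scarcer CD14 cells in the CSF2RA value was not tested. In the CD14 gate IL2RA was higher by 2.31, 2.47 and 1.57 and CSF3R by 1.79, 3.28 and 1.27, and IL6R was lower by -1.02 at 2 h and -1.21 at 4 h. The share of this gate's cells that carried CSF3R also differed between libraries, as described above. The part of gate make-up in the CSF3R values was not tested. The 4 JAK kinases gave 1 call, JAK2 in the CD14 gate at 2 h, by 1.18. Of the 7 STAT factors, STAT2 was called higher over all cells at 4 h, by 1.09, and STAT4 in the CD14 gate at 2 h and 4 h, by 1.11 and 1.73.

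Of the 15 STAT target genes with enough UMIs over all cells, 3 were called higher at 2 h, 3 at 4 h and 1 at 8 h. CXCL10, an interferon-induced chemokine, was higher by log2 values of 1.52, 3.23 and 1.94, and IL1RN, the IL1 receptor antagonist, by 1.49 at 2 h and 1.14 at 4 h. PIM1, a kinase gene, was higher by 1.2 at 2 h and GBP2, a guanylate-binding protein gene, by 1.30 at 4 h. Among CD14 cells IL1RN was higher by 2.21, 2.62 and 1.46 while FOS was lower by -1.94 at 2 h and -2.26 at 4 h.

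Other JAK-STAT inhibitors included 1 call over all cells, USP18, which blocks the type I interferon receptor, higher by a log2 value of 1.67 at 4 h. USP18 in the CD14 gate was higher by 1.5, 3.36 and 1.13 and PTPN1, a JAK phosphatase, by 1.62 at 2 h and 1.07 at 4 h, and PTPN6 was lower by -1.24 at 2 h. None of the 6 ubiquitin ligase partners was called over all cells. At 2 h in the CD14 gate CUL2 stood at -1.11, CUL5 at -1.03 and RBX1 at -1.01, where the median gene stood at -0.56. Of the other SOCS genes, SOCS4 was called lower in the CD14 gate on 29 UMIs in the control and 2, 1 and 1 with LPS, while over all cells its log2 values were 0.29, 0.34 and 0.33. All genes together had 6733938, 3569199, 1135093 and 636330 UMIs in this gate, so the SOCS4 counts cannot be compared directly. The SOCS4 calls at 4 h and 8 h rest on 1 UMI each. SOCS5 and SOCS7 were not called over all cells, and SOCS6 had too few UMIs.

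Over the 16 sums of 4 gates in 4 libraries, the gene with the profile most like SOCS3 was TMEM251, with Pearson's r of 0.945 on log2(CPM + 1) among 9610 genes, followed by ULBP13 at 0.942 and ATP6V1G1 at 0.929. For CISH they were EDEM1 at 0.886, DCUN1D3 at 0.877 and CFLAR at 0.872, and for SOCS2 GPCPD1 at 0.885, TREX1 at 0.875 and RAB11FIP1 at 0.839. Ranked by Spearman's correlation, TMEM251, EDEM1, CFLAR, GPCPD1 and TREX1 stayed among the 3 genes most alike. ULBP13, ATP6V1G1, DCUN1D3 and RAB11FIP1 did not. These 16 sums share libraries and cells of a gate, and the values are descriptions. SOCS1 had 125 UMIs in the 16 sums, under the 200 required.

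In scATAC-seq the gene counts of SOCS3 were highest at 2 h, and those of CISH were close to each other in the 3 LPS libraries. Their depth was very unequal, with a median of 213 counts per barcode without LPS and 5171, 5205 and 2250 with LPS, and the no LPS and 2 h libraries shared 228 barcodes, 7.31% of those without LPS. SOCS3 had 125, 7293, 4396 and 2331 counts, or 128 CPM (98.4 to 164), 241 (233 to 249), 164 (157 to 171) and 195 (184 to 206). The 2 h library was the highest, as it was for SOCS3 RNA over all cells. Between the better covered libraries SOCS3 was lower at 4 h than at 2 h by a log2 value of -0.55 (-0.63 to -0.48), and at 8 h than at 2 h by -0.31 (-0.40 to -0.21).

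CISH had 107, 110, 108 and 113 CPM, with overlapping intervals in all 4 libraries. With only the 352 barcodes of at least 500 counts, its level without LPS was 85.3 CPM, which put the LPS libraries above it by log2 values of 0.36, 0.34 and 0.41. That of SOCS1 was then 182 CPM, with log2 values of -0.19, -0.21 and 0.09. CISH RNA over all cells was between 1.54-fold and 1.98-fold above the control with LPS. SOCS1 stood at 157 CPM (124 to 196), 160 (153 to 166), 157 (151 to 164) and 194 (183 to 206), and its 8 h library was above the 2 h library by a log2 value of 0.28 (0.18 to 0.38). The RNA of SOCS1 was also highest at 8 h. SOCS2 stood at 44.1 (27.5 to 67.1), 25.8 (23.3 to 28.5), 33.2 (30.2 to 36.4) and 30.8 (26.5 to 35.6), and at 4 h it was above 2 h by 0.35 (0.16 to 0.55). These counts were not split by cell type, and the part of unequal depth and of different cell make-up in them was not tested.

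**Figure D5:**
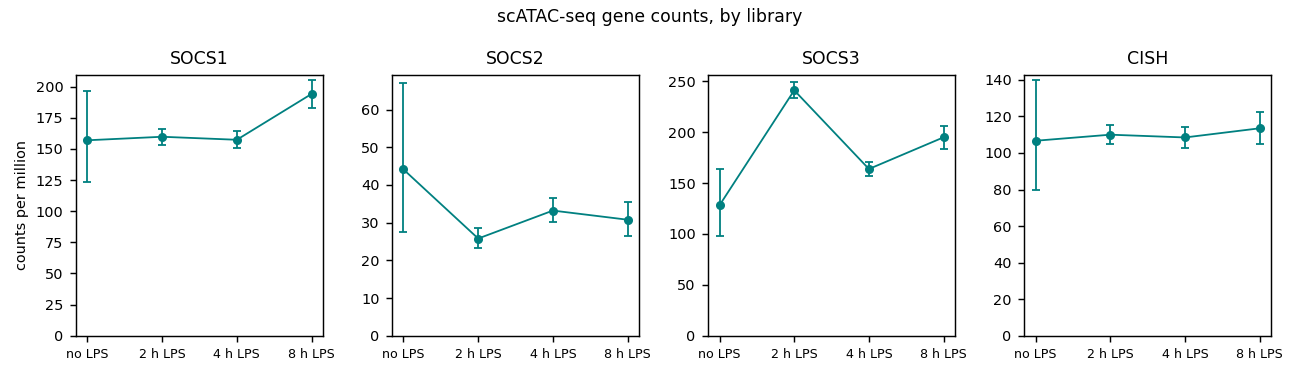
scATAC-seq level of each gene (CPM, its share of all counts on genes) in the 4 libraries, with 95% counting intervals as bars. SOCS3 was highest at 2 h with 241 CPM, and CISH lay between 107 and 113 CPM, with the widest intervals in the shallow library without LPS.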

How the data were processed

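For scRNA-seq the deposited tables held unnormalised UMI counts of genes in barcodes, and the submitters' processing notes name Cell Ranger and the cattle genome ARS-UCD1.2 (bosTau9). The scATAC-seq tables deposited by the authors likewise held gene counts, whose counting rule is not given in the sources used here. Barcodes entered if they had between 200 and 3000 genes, no fewer than 200 UMIs, and a mitochondrial share below 20%. UMIs were summed per library and gate and scaled to CPM. Ratios used a pseudocount of 1 CPM, and fold changes are CPM ratios. Intervals are exact Poisson, binomial or conditional binomial at 95%, on halved counts for scATAC-seq because a fragment can add 2. A count of 0 was given the limit that 3 counts allow. No doublet caller was run, and exclusive gates left out cells with markers of 2 classes. There was no replicate, so no p-value was computed.

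The members and gene lists were chosen with earlier results of these data known. Named pathway genes were those past 2-fold over all cells or in the CD14 gate, at most 3 per list and time by size. Another 3 genes per member were named by likeness of profile. Alternatives were scaling by edgeR 4.0.16 (TMM) and DESeq2 1.42.0, equal weight per cell, other gates, limits and pseudocounts, computed with Python 3.11.15 and R 4.3.3. The ratio step was tested on simulated data. Gene coordinates and sequences were not used here.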

Additional observations from a re-analysis of the deposited data

How the results depend on the processing

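Values are log2 ratios to no LPS unless stated. In 302 of the 334 planned and 38 of the 45 later comparisons of a main result with an alternative, the value stayed within the counting interval or, for a count of genes, within 1.5 times, and no member past 2-fold changed sign. Of the other planned comparisons 55 moved, all of them shares of cells with a UMI after thinning to 1000 UMIs, and 18 did not. With every cell weighted equally, the all-cell values were -0.52 for SOCS2 at 2 h, 1.24, 0.80 and 0.37 for SOCS3 at 2 h, 4 h and 8 h, and 0.41 and 0.65 for CISH at 2 h and 8 h. Under this weighting the CD14 gate gave 2.00 and 1.94 for SOCS3 and 2.49 and 3.52 for CISH at 2 h and 4 h, and the MS4A1 gate gave 2.48 for SOCS2 at 8 h and 1.17 for SOCS3 at 4 h. With the populations held at their no LPS shares, SOCS3 became 0.92, 0.70 and 0.13, CISH 0.84 at 2 h and 1.30 at 4 h, and SOCS2 1.02 at 8 h. With at least 2000 UMIs per cell SOCS3 at 2 h was 0.36. Without marker-free cells, an alternative chosen after seeing the data, SOCS2 became 0.28, 0.45 and 1.07, SOCS3 at 2 h 0.31 and CISH at 8 h 0.65. In the CD14 gate SOCS2 at 8 h was 2.35 without the gene limit and 2.22 with a pseudocount of 5, and CISH at 8 h was 1.88 with 1 CD14 UMI. Without CD14 cells carrying CSF3R, also chosen after seeing the data, SOCS3 at 2 h was 0.64 and CISH at 4 h 1.90. With 2 UMIs of the own marker SOCS2 was 0.25 in MS4A1 at 8 h and 4.43 in NCR1 at 4 h. The NCR1 value sets 20.5 CPM in 30 cells against 0 CPM in only 7 control cells, so its size rests on the pseudocount. Scaling by TMM or DESeq2 lowered the genes called higher over all cells at 8 h from 58 to 35, and DESeq2 took the 1 pathway gene called lower at 2 h to 0. Counting scATAC-seq barcodes with a count instead of counts gave -0.33 for SOCS3 at 4 h against 2 h, and at 8 h against 2 h -0.61, -0.65, -0.96 and -0.75 for SOCS1, SOCS2, SOCS3 and CISH, the 8 h barcodes being the shallower ones. Apart from these last values, where depth enters by construction, the cause was not tested. No paired analysis was possible because each treatment had 1 library. Depth limits SOCS1 in every gate and all genes in the NCR1 gate.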

Other observations

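The marker-free cells that carried SOCS1 had few UMIs, and they are described by values only, since the set was chosen after its values were seen. In the control and the 3 LPS libraries in order of time they numbered 10, 21, 17 and 12 and held 14, 28, 24 and 16 SOCS1 UMIs. Their median depth was 666 to 811 UMIs, against 1292 to 3351 in marker-free cells as a whole, and their median ribosomal protein share was 3.08% to 4.37%. Over the 4 libraries together, HSPA1A (a heat shock protein gene) stood at 4714 CPM in them and 69.3 CPM in other marker-free cells, EGR1 (an immediate early transcription factor) at 5002 and 86.0 CPM, CEBPB at 1956 and 17.1 CPM, DUSP5 (a MAP kinase phosphatase gene) at 3624 and 54.4 CPM, and LRATD1 at 1746 and 12.9 CPM. All cells with SOCS1, inside or outside the gates, had median depths of 4523, 4214, 4331 and 1437 UMIs.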
